A study of Mus musculus with 4 samples.

Results

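The block taken here is the range of miRBase identifiers MIMAT0014800 to MIMAT0015650. It holds mostly mouse miRNAs that entered the miRNA catalogue from deep sequencing, numbered miR-3057 to miR-3113 and miR-3470 to miR-3474. The block held 160 of the 1265 probes of the array. Of these, 152 had identifiers from MIMAT0014800 to MIMAT0014961, 7 from MIMAT0015640 to MIMAT0015646, and 1 was MIMAT0015219. A miRBase mature identifier names 1 mature miRNA, and 3 of the probes carried 2 identifiers, so their signals do not separate the miRNAs concerned. Plasma cell-free miRNAs (cf-miRNAs) of aged and young male C57BL6/J mice were measured, in 2 aged mice given in the labels as 23 to 24 months old and 2 young mice given as 6 to 7 weeks old. The labels give no treatment for either group, and each mouse had 1 array. Blood was taken by cardiac puncture into EDTA, RNA was labelled with the dye Hy5, and the chips were 3D-Gene mouse miRNA chips, on which each probe binds a mature miRNA. The deposited signal intensities are linear, and the authors brought each array to a median of 25 over its listed values; the other probes are blank.

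A miRNA is cut from a hairpin transcript by the microprocessor complex and Dicer, and is loaded into an Argonaute protein, which it guides to messenger RNAs that pair with its seed, bases 2 to 8. Blood plasma carries miRNAs released by many tissues and by blood cells, so a plasma level has no single tissue of origin. Many miRNAs that were found late, by deep sequencing, are of low abundance in most tissues and have few described functions.

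The files do not pair identifiers with names, and 159 of the 160 block probes stay unnamed here. The exception is miR-3474, with the identifier MIMAT0015646, whose signals on the 4 arrays are printed in the study. RefSeq, in build GRCm38.p6, places the gene Mir3474 at chr2:158638583-158638640 and its mature miRNA at bases 158638583 to 158638604 of the plus strand, within the bounds of Actr5, which encodes a subunit of the INO80 chromatin remodelling complex. Whether this stretch is exonic or intronic, and the strand of Actr5, are not given in the tables used here. The mature sequence is shown because miR-3474 had the lowest difference between the ages in the block. That of miR-6945-5p is shown as the only other mature miRNA of the RefSeq table with the same seed. Capitals mark the seed, 5′ to 3′.
miR-3474: cCCUGGGAggagacguggauuc
miR-6945-5p: uCCUGGGAggggcagccccugg
Both have 22 bases and are alike from base 2 to base 10. The miR-6945-5p sequence comes from chromosome 13, at bases 55507667 to 55507688 of the minus strand, within the bounds of Pdlim7, a gene for a PDZ and LIM domain protein. G made up 40.9% of miR-3474, and 83.8% of the mature sequences in the table had that share or less. Under the names miR-3057 to miR-3113 and miR-3470 to miR-3474, the table holds 109 mature sequences from 61 genes, of which 50 are 5p and 54 are 3p arms. They have 106 different seeds, so nearly all differ in the bases that select targets, and their median GC content of 54.5% lay close to the 52.2% of all 1679 sequences. These sequences could not be tied to single identifiers. They are fewer than the 160 block probes, so the seeds and GC content describe the named range and not the probes measured.

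Most block miRNAs were listed on few arrays. Of the 160 probes, 60 (37.5%) had no value on any array, 40 had a value on 1 array, 18 on 2, 10 on 3 and 32 (20%) on all 4. Of all 1265 probes, 35.3% had no value and 28.6% a value on all 4. The aged arrays listed 64 (mouse 1) and 57 (mouse 2) block miRNAs, and the young arrays 70 (mouse 1) and 43 (mouse 2). The array of young mouse 2 had the shortest list for the block, and also for all probes, with 439 against 563 to 620 on the others. Listed block signals had medians of 19.6 and 20.7 in the aged mice and 19.5 and 20.0 in the young mice, under the array median of 25.

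**Figure D1:**
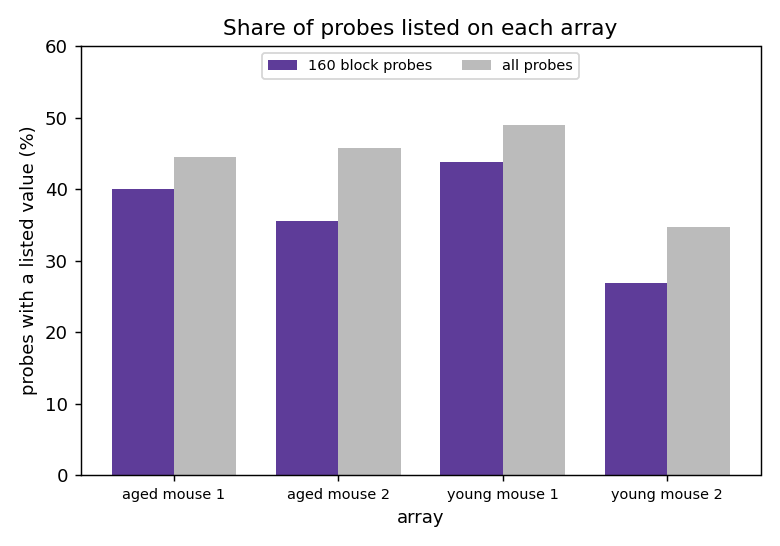
Share of probes with a listed value on each array, in percent, for the 160 block probes and for all 1265 probes. The block was listed on 40% and 35.6% in the aged mice and on 43.8% and 26.9% in the young mice, below the share of all probes on each of the 4 arrays.

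Few block miRNAs were listed by age. Of the 160, 2 had values in both aged mice and in neither young mouse, at low signals: MIMAT0014840 with 9.7 in aged mouse 1 and 16.2 in aged mouse 2, and MIMAT0014932 with 8.6 and 13.4. The reverse held for 1, MIMAT0014809, with 12.9 in young mouse 1 and 8.5 in young mouse 2. These are 1.25% and 0.625% of the block, where 2.21% and 1.11% of all 1265 probes had these patterns. All 3 were close to the smallest value that each array listed, which was 7.0 and 9.5 in the aged mice and 7.0 and 8.1 in the young mice. By mouse number instead of age, 11 block miRNAs had values in both mice numbered 1 and in neither mouse numbered 2, at signals of 7.2 to 30.4, which is 6.88% of the block and 3.79% of all probes. The reverse held for 1 of them, at 18.8 in the aged and 9.5 in the young mouse numbered 2. Of the 10 with a value on 3 arrays, 7 lacked young mouse 2 and 3 lacked aged mouse 2. The highest signal of a block miRNA listed on a single array was 77.7, for MIMAT0014928 in young mouse 1. A blank gives no upper bound, since the sources used here do not give the rule by which a value was listed.

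The 32 block miRNAs with a value on all 4 arrays spanned signals of 9.0 to 8409. After their values had been seen they were divided into 9 with a signal over 500 on every array, 19 at or under 100 on every array and 4 between, among them miR-3474. A probe's signal also depends on how well it binds, so this order is not one of abundance. The brightest probe by mean log2 signal was that of MIMAT0014801, with 5406 and 6689 in the aged mice and 7171 and 3167 in the young mice. That of MIMAT0014901 had 5387 and 4517 in the aged mice and 5543 and 1873 in the young mice. For MIMAT0014862 the aged mice had 8409 and 3440 and the young mice 5205 and 1261, the widest gap between aged mice among the 9. In these 3 the range of the young mice overlapped that of the aged mice, and young mouse 2 was the lowest of all.

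In the next brightest, too, young mouse 2 was the lowest of the 4. MIMAT0014852 had 4064 and 4238 in the aged mice and 4827 and 1881 in the young mice. MIMAT0014841 had 4716 and 3880 in the aged mice and 3610 and 1544 in the young mice, so that both aged mice lay above both young mice. MIMAT0014933 had 2031 and 1521 in the aged mice and 2393 and 783.8 in the young mice. All 9 bright miRNAs had their lowest signal in young mouse 2, at 0.242 to 0.492 times young mouse 1. Young mouse 2 was below young mouse 1 in 95% of all 362 miRNAs listed on every array. The count of lowest signals was not made over all 362, so it is not a result about the bright miRNAs. Block probes, 160 of the 1265, held 9.84% and 10.1% of the summed signal of the aged arrays and 10.9% and 9.34% of that of the young arrays.

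**Figure D2:**
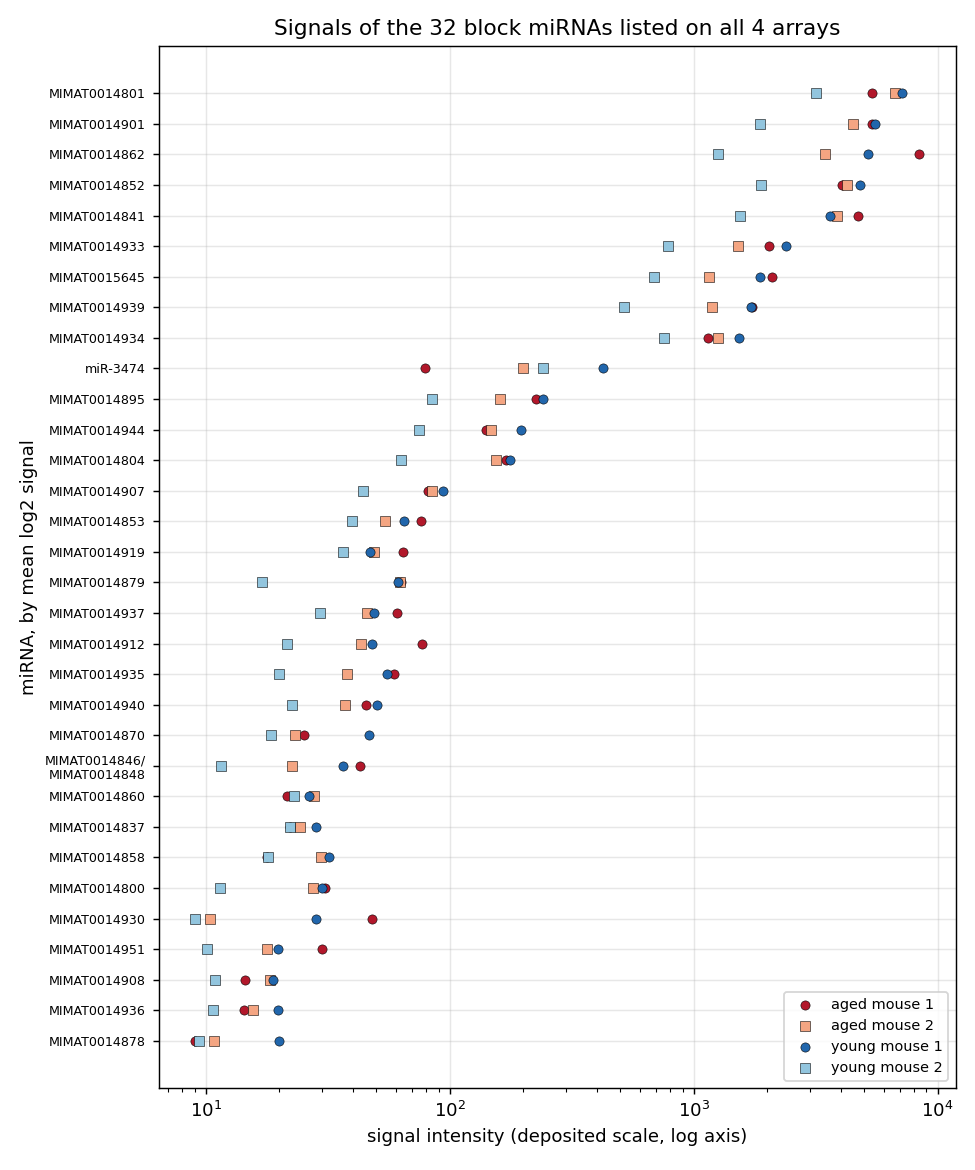
Signal of each of the 32 block miRNAs listed on all 4 arrays, on a log axis, ordered by mean log2 signal. Points are single arrays, with circles for mice numbered 1 and squares for mice numbered 2. Young mouse 2 lies left of young mouse 1 in all 32, and for miR-3474 aged mouse 1, at 79.3, lies left of the other 3 arrays.

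The young mice differed in the same direction throughout the block, and the aged mice did not. Young mouse 2 was below young mouse 1 in 32 of 32 block miRNAs, where it was in 95% of all 362 miRNAs listed on every array, and the median ratio was 0.435 against 0.549 over all 362. Aged mouse 2 was below aged mouse 1 in 20 of 32, with a median ratio of 0.865, where it was in 47.8% of all 362, with a median ratio of 1.04. On the log2 scale the median gap was 0.35 between the aged mice and 1.20 between the young mice, and the median size of the difference between the ages was 0.46. The young mice lay further apart than the age means in 30 of 32 block miRNAs, and the aged mice did in 15 of 32. These counts were not made over all 362, so they are not a result about the block. Pearson correlations of log2 signal over the 32 ran from 0.961 to 0.992 between arrays, as a description only, since the miRNAs share the arrays and span a wide range of signals. The median signal of the 362 shared miRNAs was 62.1 and 56.0 on the aged arrays and 67.9 and 35.2 on the young arrays, and that of the 32 block miRNAs was 70.2 and 51.6 on the aged arrays and 58.3 and 32.8 on the young arrays.

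The comparison of aged with young plasma asks which cf-miRNAs differ with age. It was made with limma on log2 signals of the 362 miRNAs listed on every array, aged minus young, with Benjamini-Hochberg adjustment. No block miRNA passed an adjusted p of 0.05, where 0.276% of all 362 did, and 1 had an unadjusted p under that value, where 6.08% of all 362 did. That miRNA was miR-3474, lower in aged plasma, where 2.21% of all 362 had such a p in that direction and 3.87% in the other. Of the 32, 26 had a fitted difference above 0, where 68% of all 362 did, and the median was 0.43 for the block and 0.31 for all 362. The count above 0 was 22 of 32 with equal medians, 20 with quantile normalization and 7 without young mouse 2. Both medians followed the young arrays. Leaving out young mouse 1 gave 1.05 for the block and 0.73 for all 362, and leaving out young mouse 2 gave -0.23 and -0.14. They also followed the scaling, with the block at 0.16 with equal medians (0.03 for all 362), 0.21 with scaling on the brightest miRNAs (0.09) and 0.09 with quantile normalization (0.07). Without young mouse 1, 4 block miRNAs passed the adjusted threshold, where 13.8% of all 362 did. None passed with a filter on low signals or without young mouse 2, where 0.552% of the miRNAs tested passed in each case, nor with blanks at the lowest value, where 0.346% did. The ages did not overlap in 4 of the 32, where they did not in 29.8% of all 362, with both aged mice above both young mice in 3, where this held for 19.9% of all 362, and below in 1, where it held for 9.94%. A difference between the block and all 362 in these counts was not tested. An exact permutation test of 2 mice against 2 gives no two-sided p below 0.333.

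**Figure D3:**
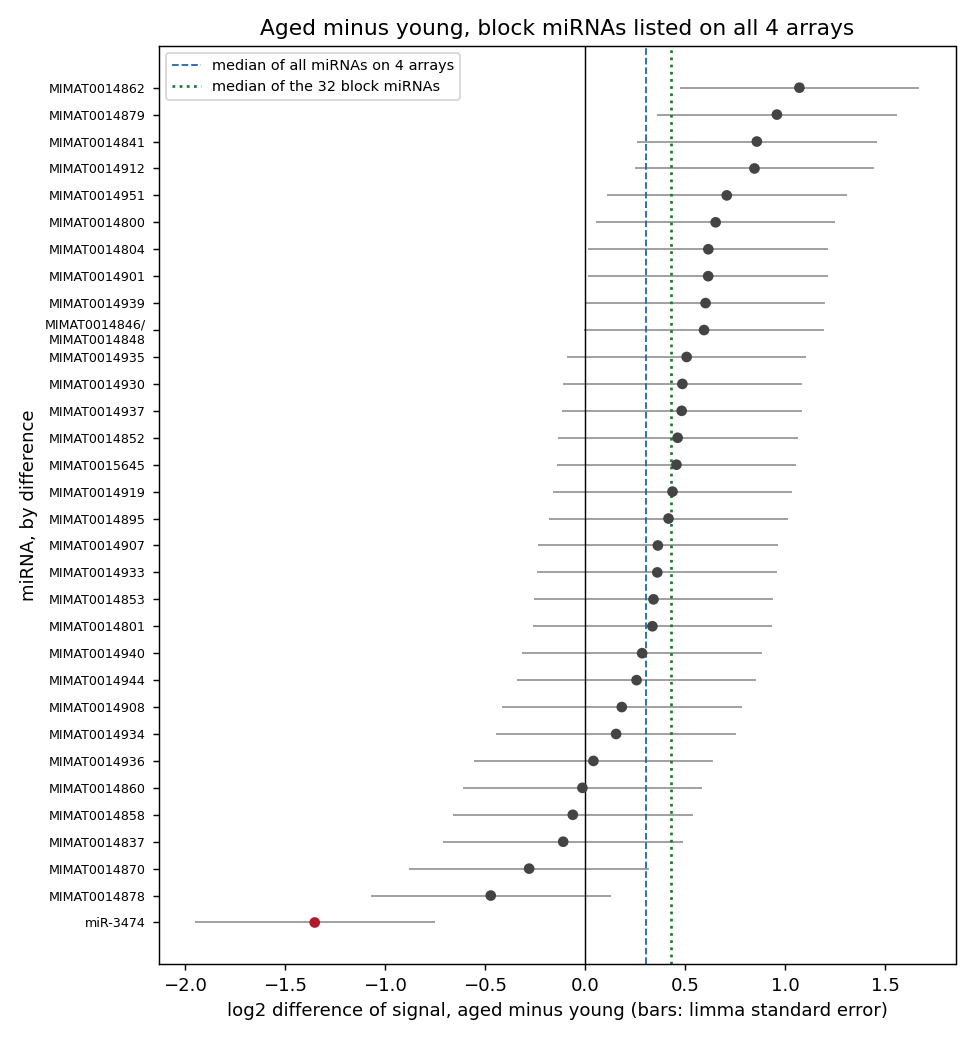
Log2 difference of signal, aged minus young, for the 32 block miRNAs listed on all 4 arrays, with limma standard errors of 0.60 as bars. The dashed line is the median of all 362 miRNAs (0.31) and the dotted line that of the block (0.43). The point of miR-3474, at -1.35, lies alone on the left, and the next lowest is at -0.47.

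The signal of miR-3474 was 79.3 in aged mouse 1 and 198.6 in aged mouse 2, against 425.9 in young mouse 1 and 240.9 in young mouse 2. Both aged mice were below both young mice, narrowly so for the mice numbered 2. The mean was 139 ± 84.4 (SD, n = 2 mice) in aged plasma and 333 ± 131 (SD, n = 2) in young plasma, a ratio of 0.417, and 3.59% of all 362 miRNAs had a ratio of 0.5 or less. On the log2 scale it was lower by a fitted -1.35 (limma standard error 0.60, adjusted p = 0.80), the third lowest of 362. The study lists miR-3474 among miRNAs it chose on these arrays, so this is not independent evidence of its direction. Apart from the arrays, the study states that such differences were seen again by qRT-PCR, and its methods list an assay for miR-3474. No other block miRNA was near it, with differences from -0.47 to 1.07.

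The size of the miR-3474 difference depended on aged mouse 1. Its signal there was 0.186 times that of young mouse 1, while that of aged mouse 2 was 0.824 times that of young mouse 2. Without aged mouse 1 the log2 difference was -0.69, without aged mouse 2 -2.01, without young mouse 1 -0.94 and without young mouse 2 -1.76. With all 4 arrays brought to 1 median over the shared miRNAs it was -1.62 (limma, adjusted p = 0.016, standard error 0.42), where 4.42% of all 362 miRNAs were called. When each array was scaled on its 439 brightest miRNAs it was -1.57 (limma, adjusted p = 0.019, standard error 0.41), where 4.97% were called. With quantile normalization it was -1.45 (limma, adjusted p = 0.32, standard error 0.48). With equal medians and with the brightest, limma used 1 spread common to all 362 miRNAs, not that of miR-3474 itself. In the 13 settings tried, the 4 left-out arrays included, miR-3474 had the lowest difference of all block miRNAs tested in 13. That rank could not change with equal medians or with the brightest, which shift the differences of all miRNAs alike. Nor could it with the filter on low signals, the trended and robust variance or the replicate block, where the differences stayed the same. Without aged mouse 1 miR-3474 hardly stood apart, at -0.69 against -0.62 for the next lowest block miRNA. It was then 23rd from the lowest of all 362.

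**Figure D4:**
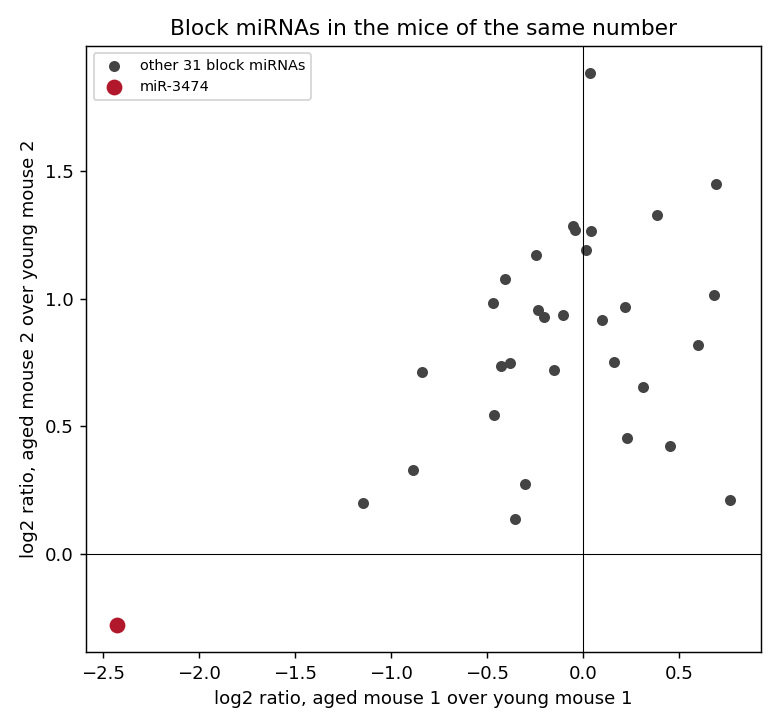
Log2 ratio of aged over young signal for each of the 32 block miRNAs, in the mice numbered 1 (horizontal axis) and in those numbered 2 (vertical axis). The other 31 lie from -1.14 to 0.76 in mice numbered 1 and from 0.14 to 1.88 in mice numbered 2, all above 0 there, and miR-3474 lies at -2.43 and -0.28.

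The block miRNAs gave different values in the mice numbered 1 and in those numbered 2. In the mice numbered 2 the aged signal was above the young one in 31 of 32, all but miR-3474. The median ratio was 1.82, where the aged signal was above in 85.4% of all 362, at 1.68. In the mice numbered 1 it was above in 14 of 32, at a median ratio of 0.947, where it was in 39.8% of all 362, at 0.922. Over the whole block, 15 of 32 had the same sign in both, where 50.6% of all 362 did. The study calls the arrays numbered 1 and those numbered 2 separate experiments, and does not say what the arrays of an experiment shared.

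A level within an array does not carry the scale of that array, so each block miRNA was also set against the median of the other block miRNAs on the same array. By this measure miR-3474 was 0.30 above that median in aged mouse 1 and 2.02 in aged mouse 2, against 2.95 in young mouse 1 and 3.04 in young mouse 2, on the log2 scale. The young mice were nearly level, which they were not on the deposited scale, and the aged mice lay far apart. The mean was 1.16 in aged and 3.00 in young plasma, a difference of -1.83 (two-sided exact permutation p = 0.333, the smallest that 2 mice per age allow). The other 31 differed by -0.91 to 0.59. Without aged mouse 1 the difference of miR-3474 was -0.97, and without aged mouse 2 it was -2.70.

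**Figure D5:**
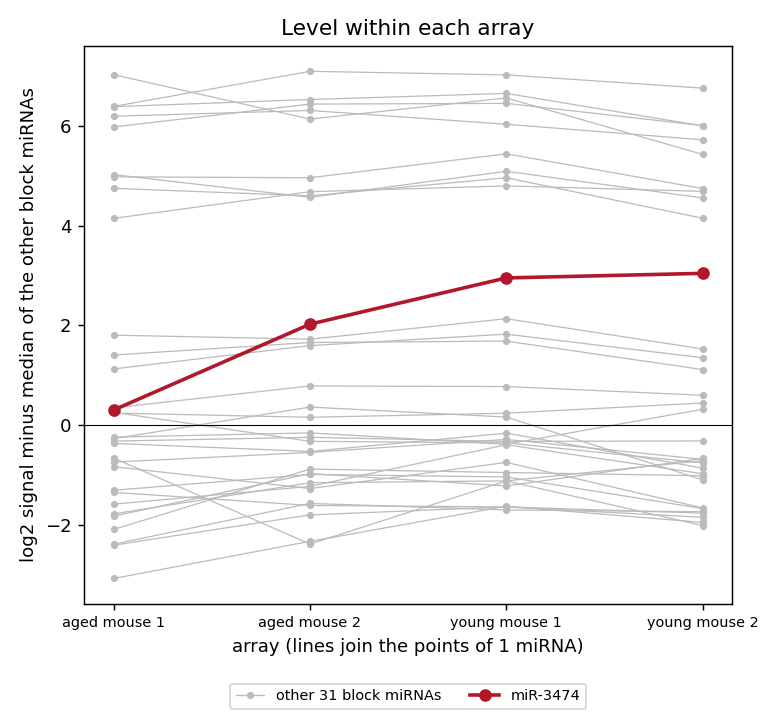
Log2 signal of each block miRNA minus the median of the other block miRNAs on the same array, for the 2 aged and the 2 young mice, with lines joining the points of 1 miRNA. The other 31 (grey) differed between the ages by -0.91 to 0.59, and miR-3474 is at 0.30 and 2.02 in the aged mice and at 2.95 and 3.04 in the young mice.

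The samples are labelled as plasma, and 5 of 13 miRNAs known from blood and neighbouring tissues could be named. All 5 had a value on every array, from 56.8 to 836.1, among them miR-486-3p of red cells and miR-223-3p of myeloid cells. The signal of miR-223-3p was 429.9 and 499.2 in the aged mice and 269.1 and 141.4 in the young mice, so both aged mice were higher. That of miR-486-3p was 836.1 and 437.1 in the aged mice and 484.5 and 121.3 in the young mice, and the ages overlapped. The muscle miRNAs had the direction of miR-3474, opposite to that of miR-223-3p. In all 3 of those named, miR-133b-3p, miR-133a-3p and miR-1a-3p, the aged mice were both lower than the young mice. All 5 miRNAs could be named because the study printed their signals among miRNAs it chose on these arrays. The direction of each here is therefore not independent evidence. By qRT-PCR, the study also reports blood levels of miR-1 and miR-133 reduced in aged mice. The summed signal of the 3 muscle miRNAs was 215.6 in aged mouse 1 and 478.6 in aged mouse 2. It was 1394.5 in young mouse 1 and 557.5 in young mouse 2, the same order of the 4 mice as for miR-3474. Much of this shared order says little, since the study chose them and miR-3474 on these arrays as lower in aged mice. Young mouse 2 was also below young mouse 1 in 95% of all 362 miRNAs. The part of the muscle miRNAs in the miR-3474 result was not tested.

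Among the remaining miRNAs with separate ages, MIMAT0014879 had 62.9 and 62.7 in the aged mice and 61.5 and 17.0 in the young mice, so that aged mouse 2 was above young mouse 1 by little and young mouse 2 alone was low. Its log2 difference was 0.96 (limma, adjusted p = 0.84). MIMAT0014919 had 64.3 and 48.8 in the aged mice and 47.1 and 36.4 in the young mice, with ratios of 1.37 and 1.34 in the mice numbered 1 and 2. It was the one of the 3 in which both pairs of mice gave nearly the same ratio, and its log2 difference was 0.44 (limma, adjusted p = 0.88). For MIMAT0014841 the log2 difference was 0.86 (limma, adjusted p = 0.84), with a standard error of 0.60 as for the others. The highest difference of the block, 1.07 for MIMAT0014862, came with overlapping ages.

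By signal, the 9 bright miRNAs had differences of 0.15 to 1.07, with a median of 0.46. The 19 dim ones had -0.47 to 0.96, with a median of 0.36, and 14 of them were above 0, where 68% of all 362 were at any signal. The lowest of these, MIMAT0014878, had 9.0 and 10.8 in the aged mice and 19.9 and 9.4 in the young mice, close to the lowest listed values, and its ages overlapped. Of the 32, 7 had a signal within 2 times the lowest listed value on at least 1 array. These medians and counts by signal were not made over all 362, so they are not a result about the block. For MIMAT0014930 the mice numbered 1 were high at either age, with 48.0 in aged mouse 1 and 10.4 in aged mouse 2, against 28.3 in young mouse 1 and 9.0 in young mouse 2. MIMAT0014870 had 25.3 and 23.2 in the aged mice and 46.8 and 18.5 in the young mice, where young mouse 1 alone was high. These 2 were singled out after their values had been seen.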

How the data were processed

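Plasma RNA of 2 aged and 2 young mice was measured on 3D-Gene chips, version 19, 1 per mouse. The deposited values are signal intensities, scaled by the authors to a median of 25 over the listed values of each array. The sources used here do not give the background subtraction or the listing rule. A further 8 columns of per-sample intensities name no mouse and were left out. No pseudocount was added before log2, and the 362 miRNAs listed on all arrays were fitted by lmFit and eBayes of limma 3.58.1 (R 4.3.3), at a threshold of 0.05. eBayes estimated 1 common spread, so every standard error is 0.60. The step was tested on simulated data with larger differences and less noise than these, and no shift between arrays. That test does not show how the step performs on these arrays. Figures were made in Python 3.11.15 with matplotlib 3.10.9. With 2 mice per age, differences are estimated with low precision. In the main fit each p-value is set against the 1 common spread of the 362 miRNAs, not the miRNA's own spread. That common spread comes from these mice alone. Members, lists and tests were chosen with earlier results of these data known. Named in full by rule were miR-3474, the 6 brightest block miRNAs, up to 5 differences each way with separate ages, any past the threshold, and those listed at 1 age alone. Names come from the study's printed signals, matched by value for 6 identifiers. Alternatives were quantile normalization, equal medians, scaling on the 439 brightest miRNAs, a filter on low signals, blanks at the lowest value, a pseudocount of 16, a trended and robust variance, a replicate block, each array left out, and the methods' one-way test.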

Additional observations from a re-analysis of the deposited data

How the results depend on the processing

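No block miRNA passed the threshold on all arrays, and 1, miR-3474, did with equal medians and with scaling on the brightest miRNAs (log2 differences -1.62 and -1.57). Over the 9 limma settings with 2 mice per age its adjusted p ran from 0.016 to 0.89. Of all 362 miRNAs, 1 passed on all arrays, 16 with equal medians, 18 with the brightest, 0 with quantile normalization (53 at an unadjusted p under 0.05) and 0 with a trended and robust variance (15), and 2 of 578 passed with blanks at the lowest value. The methods' one-way test called 7 unadjusted and 0 after Benjamini-Hochberg, and no block miRNA either way. With 1 array left out, the lone mouse is assumed to vary like those of the other age. The calls then ran from 0 to 50 of all miRNAs and from 0 to 4 of the block, both highest without young mouse 1. The median of the block ran from -0.23 without young mouse 2 to 1.05 without young mouse 1. Direction reversed with quantile normalization for MIMAT0014801 (-0.35), MIMAT0014852 (-0.19) and MIMAT0014933 (-0.24). Without young mouse 2 it reversed for MIMAT0014801, MIMAT0014901, MIMAT0014852 and MIMAT0014933. With 1 array left out these 4 ran from -0.25 to 0.93, -0.17 to 1.40, -0.22 to 1.14 and -0.45 to 1.17. Of 32 block miRNAs, 6 changed sign with quantile normalization and 19 without young mouse 2. These counts were not made over all 362, and the cause was not tested. Without young mouse 1, the 4 that passed were MIMAT0014862 (2.09), MIMAT0014841 (1.47), MIMAT0014879 (1.89) and MIMAT0014939 (1.46), the last named after its value was seen.

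The study calls the same-numbered aged and young arrays experiment 1 and experiment 2, and no shared litter, batch or day is stated. The deviations of same-numbered arrays correlated at 0.34 over all 362 miRNAs and at 0.50 over the 32 of the block. With the number as a replicate block, 1 of all and 0 of the block miRNAs passed, and miR-3474 had an adjusted p of 0.55. Low signals limit the dim miRNAs, and the rule by which a value was left blank is not given.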
